A study of Mus musculus with 12 samples.

Results

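The enzymes that add methyl groups to histone lysines, and those that remove them, were examined as 1 group of 44 genes: 28 methyltransferase genes (here called writers) and 16 demethylase genes (erasers). Members were taken by gene symbol, and all 44 were among the 25834 genes listed at every age and among the 15734 genes that passed the filter on low values (1 scaled CPM in at least 4 libraries). RNA came from nuclei of the cortex of male mice aged 0, 14 or 28 days (P0, P14 and P28), and every age had 4 biological replicates. All pups were CAG-Sun1/sfGFP +/-; NEX-Cre +/-, so the same 2 transgenic alleles are shared by every group. NEX-Cre drives Cre from the Neurod6 locus, active in excitatory cortical neurons and their late precursors, and Cre switches on a fluorescent nuclear envelope protein by which nuclei were purified (INTACT). Library labels at P0 and P14 carry WT and those at P28 do not, and they do not say which locus is meant. The series belongs to a study of the histone variant H2BE, and no treatment or mutant is among the groups compared here.

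Methyl groups on histone lysines mark the state of chromatin. Methylation of lysine 4 of histone H3 (H3K4) is found at promoters and enhancers of active genes, H3K36 and H3K79 methylation along transcribed genes, and H3K9, H3K27 and H4K20 methylation mainly in silenced or compacted chromatin. Each residue has its own writers, mostly SET domain proteins. The erasers are amine oxidases (Kdm1a, Kdm1b) or JmjC domain oxygenases (the other 14 members), and some of them are shared between residues. Mutations in many of these genes cause human neurodevelopmental disorders.

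Depth per library ran from 13195973 to 16599217 recovered reads for P0, from 25486861 to 33611769 for P14 and from 21569262 to 31215435 for P28. The least covered member, Setdb2, had 66 to 182 reads in a library. Levels are scaled CPM, the library share of a gene's reads on the usual CPM scale, with all 12 libraries scaled together, and changes are log2 fold changes of scaled CPM + 0.5 with adjusted p from limma. P14 replicate 2 stood apart: its mean correlation with the other P14 libraries was 0.951, against at least 0.976 for every other library with its own age. It was the lowest or highest P14 library in 40 of the 44 members (90.9%, against 84.5% of all genes tested). P0 replicate 1, a library labelled as merged, had 15.9 scaled CPM of Xist, against at most 2.32 elsewhere. Neurod6, whose locus drives the Cre, was at 276 to 289 scaled CPM at P0 and at 49.8 to 73.3 at the later ages. Slc17a7, the vesicular glutamate transporter of cortical excitatory neurons, was at 111 to 145 at P0 and at 833 to 2050 at the later ages.

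From P0 to P14 the genes of histone lysine methylation mostly went down. Of the 44 members, 26 fell and 4 rose (68.2% called), and the median log2 fold change was -0.36. Among all genes tested 68.9% were called, 34.5% falling and 34.4% rising, with a median of 0.01. A fall of at least 2-fold was measured for 9 members and a rise of that size for 0 (17.0% and 16.0% of all genes). The 4 libraries of P14 all lay below the 4 of P0 in 23 members and above them in 2, against 30.2% and 29.2% of all genes. These are bulk nuclei, so fewer cells of a type and less RNA per cell cannot be told apart.

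This balance depends on rescaling the 3 separately normalized tables together. With TMM scaling, 14 of 28 writers and 10 of 16 erasers fell to P14, and 2 and 3 rose. With library total scaling, 12 writers and 10 erasers fell, and 3 and 4 rose. With the deposited values taken without rescaling, the median of all genes moved to 0.47 from P0 to P14, and 14 members fell and 15 rose. The median of the writers moved with it from -0.33 to 0.15, and that of the erasers from -0.74 to -0.25. Rescaling divides all values of a library by the same amount, so leaving it out shifts all genes of a library alike. For the later step the same setting gave a median of -0.20 over all genes, with 5 members rising and 6 falling. Directions below are therefore relative to the median of all genes, and within-library ratios, which no scaling changes, are given further on.

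From P14 to P28 the balance turned. Of the members, 9 rose and 2 fell (median log2 fold change 0.16), against 9.22% rising and 9.09% falling of all genes (18.3% called). A rise of at least 2-fold was measured for 1 member, Setd1b, and a fall of that size for 0 (1.40% and 1.44% of all genes). The P28 libraries all lay above those of P14 in 15 members and below them in 4 (14.2% and 13.2% of all genes). Without P14 replicate 2, 12 rose and 2 fell, and without P28 replicate 3, 5 rose and 2 fell. A fall to P14 followed by a rise to P28 was called in 6 of 44 members (2.42% of all genes): Kmt2a, Kmt2d, Setd1b, Setd2, Kmt2e and Kdm6b. This count was 3 (Kmt2d, Setd1b and Setd2) without P14 replicate 4, P28 replicate 1 or P28 replicate 3, and 4 without P14 replicate 3 or P28 replicate 4. It was 8 without P14 replicate 2, and 1 (Setd1b) with the values not rescaled. Suv39h1 and Kdm1b fell in both steps (4.64% of all genes). A rise followed by a fall, and a rise in both steps, were called in 0 members (2.36% and 4.31% of all genes). Among the alternatives, Setd7 rose in both steps without P14 replicate 2, and Kdm7a with DESeq2. Across the whole interval from P0 to P28, 8 members rose and 21 fell (median -0.30), against 35.7% and 35.6% of all genes (71.2% called). Without P14 replicate 2 these counts were 12 and 23, although that library is in neither group, since all libraries share 1 estimate of the spread.

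**Figure D1:**
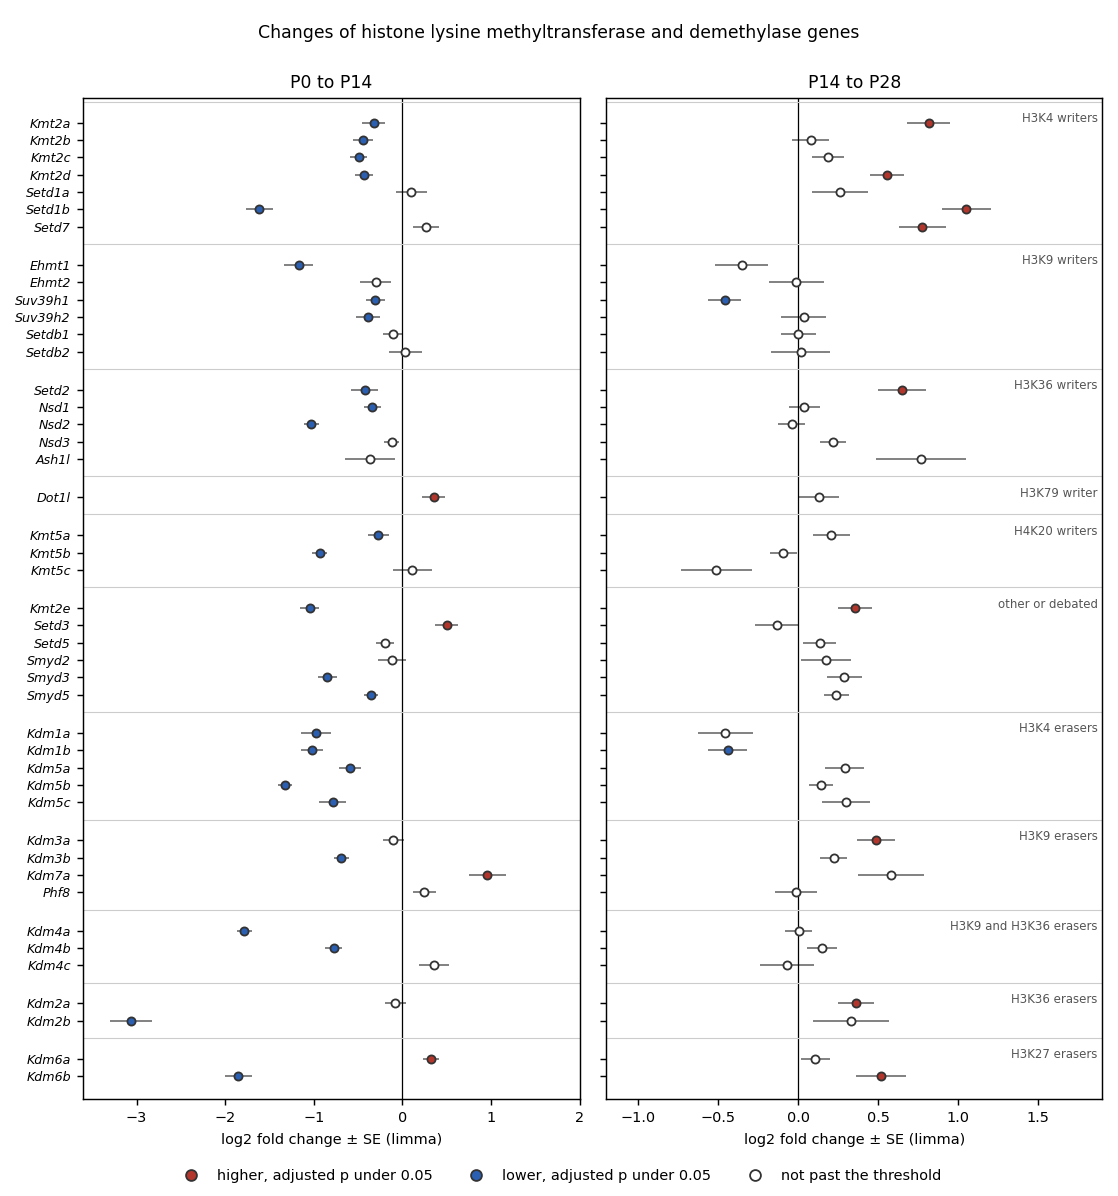
Log2 fold change ± SE of each of the 44 genes from P0 to P14 (left) and from P14 to P28 (right), fitted with limma over 12 libraries and grouped by the residue written or erased. Filled points passed an adjusted p of 0.05 (red higher, blue lower). At left 26 points are blue and 4 are red, and at right 2 are blue and 9 are red. With the deposited values not rescaled, which moved the median of all genes to 0.47, left would hold 14 falls and 15 rises.

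Kdm2b, which removes methyl groups from H3K36 and recruits a Polycomb complex to unmethylated CpG islands, had the largest change to P14. The gene lies on chromosome 5 (122870664 to 122989270, RefSeq on GRCm38.p6) and has start sites at its 5' end and a second group inside the gene, from which a short form without the demethylase domain is made. Kdm7a, an eraser of H3K9 and H3K27 methylation on chromosome 6, had the largest rise from P0 to P14 and from P0 to P28. Kdm5b, an eraser of H3K4 trimethylation on chromosome 1, had the largest fall of its class from P0 to P14 (Kdm1b and Kdm1a fell further from P0 to P28). The 250 bases before 1 start of each are shown, with CpG dinucleotides in capitals, to set a window of the largest fall and of the largest rise to P14 beside that of the H3K4 eraser that fell most to P14.
Kdm2b, internal start, chr5:122900368-122900617, minus strand: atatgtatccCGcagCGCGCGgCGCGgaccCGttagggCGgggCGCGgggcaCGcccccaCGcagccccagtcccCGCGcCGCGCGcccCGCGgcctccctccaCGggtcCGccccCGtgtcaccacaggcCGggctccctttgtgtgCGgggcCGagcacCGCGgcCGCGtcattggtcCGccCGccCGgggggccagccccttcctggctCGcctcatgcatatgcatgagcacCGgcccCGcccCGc
Kdm7a, chr6:39206774-39207023, minus strand: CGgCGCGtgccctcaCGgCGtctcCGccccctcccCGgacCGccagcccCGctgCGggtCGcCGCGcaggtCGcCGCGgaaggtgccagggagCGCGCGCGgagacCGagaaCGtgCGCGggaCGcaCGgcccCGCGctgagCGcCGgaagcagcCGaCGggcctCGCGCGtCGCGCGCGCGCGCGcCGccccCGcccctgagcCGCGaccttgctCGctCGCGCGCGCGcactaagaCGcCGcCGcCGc
Kdm5b, chr1:134559928-134560177, plus strand: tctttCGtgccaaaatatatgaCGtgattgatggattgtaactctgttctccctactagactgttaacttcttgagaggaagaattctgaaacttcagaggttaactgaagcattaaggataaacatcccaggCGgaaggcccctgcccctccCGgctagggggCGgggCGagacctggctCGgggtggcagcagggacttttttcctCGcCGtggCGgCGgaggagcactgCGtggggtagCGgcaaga
The Kdm2b window holds 36 CpG, the Kdm7a window 56 and the Kdm5b window 13. At least as many CpG are found in 2.58%, 0.00609% and 31.5% of the 32851 windows of this length in the RefSeq promoter table. Kdm2b has 4 windows in that table: the other internal one holds 38 CpG, and those at the 5' end hold 27 and 12, the last a number that 33.5% of all windows reach. Of the 44 members 31 matched that table, with 43 windows whose median was 22 CpG, against 6 in all windows. The GC box GGGCGG, searched on both strands, was in 31 of the 43 member windows (22 of the 31 genes), these 3 among them. It was in 32.7% of all windows. Member windows are also richer in GC (median 67.2%, against 52.4% in all windows), and windows of like GC content were not compared.

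Kdm2b was at 99.4, 109, 131 and 113 scaled CPM at P0, at 18.2, 6.72, 17.7 and 13.1 at P14, and at 17.2, 14.9, 15.5 and 18.4 at P28. No P14 or P28 library came near the P0 range. The fall to P14 was -3.07 ± 0.24 (adjusted p = 1.02e-07), a size reached by 1.05% of all genes, and there was no call from P14 to P28 (0.33 ± 0.24, adjusted p = 0.354). Gene-level values cannot separate the long form from the short one. Its paralog Kdm2a, with the same domains, was at 109, 110, 147 and 111 at P0, at 122, 94.7, 117 and 116 at P14, and at 144, 132, 145 and 156 at P28. Kdm2a had no call to P14 (-0.08 ± 0.11, adjusted p = 0.553). It rose from P14 to P28 (0.36 ± 0.11, adjusted p = 0.044), a call that was lost in 9 of the 12 fits that left out 1 library, with adjusted p of 0.0523 to 0.12, P14 replicate 2 (0.0533) among them. Its rise from P0 to P28 (0.28 ± 0.11, adjusted p = 0.0402) was lost in 6 of the 12 (P0 replicate 1, 2 or 4, or P28 replicate 1, 3 or 4, adjusted p = 0.0658 to 0.116).

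Among the 7 H3K4 writers, Kmt2a, Kmt2d and Setd1b were called falling and then rising. All 5 H3K4 erasers were called falling to P14, and 0 were called rising afterwards. For these and the class counts below, 34.5% of all genes fell and 34.4% rose from P0 to P14. From P14 to P28, 9.22% of all genes rose and 9.09% fell, and from P0 to P28 35.7% rose and 35.6% fell. Of the writers, 5 fell from P0 to P14 and 0 rose (median -0.43), and 4 rose and 0 fell from P14 to P28 (median 0.55). With the deposited values not rescaled, the first step gave 1 fall and 2 rises and the second still gave 4 rises. Without P14 replicate 2 the writers gave 4 falls and 1 rise, then 5 rises. Of the 5 erasers, all fell from P0 to P14 (median -0.98). With the values not rescaled 3 of them fell, and 0 had a positive value. From P14 to P28 Kdm1b passed, and it fell, while the median of the 5 erasers was 0.14. Kdm5a (0.289), Kdm5b (0.14) and Kdm5c (0.296) lay above 0 and Kdm1a (-0.455) below, all without a call. From P0 to P28 all 5 erasers fell (median -1.19; the libraries of Kdm5a and Kdm5c overlapped), whereas of the writers Kmt2a and Setd7 rose, Setd1b, Kmt2b and Kmt2c fell and 2 had no call.

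Setd1b, the catalytic subunit of a COMPASS complex that trimethylates H3K4 at promoters, moved most among the writers. It was at 94.4, 89, 110 and 96.5 scaled CPM at P0, at 38.8, 21.1, 34.8 and 33.7 at P14, and at 67.2, 60.7, 67.5 and 66.1 at P28. The 3 ages did not overlap, with P14 lowest. The fall was -1.62 ± 0.15 (adjusted p = 6.84e-07) and the rise 1.05 ± 0.15 (adjusted p = 0.000741), and both kept their calls in all 28 alternatives. Its paralog Setd1a, which serves the same kind of complex, was at 36.1, 29.6, 31.8 and 35.5 at P0, at 28.8, 56.4, 29.8 and 33.1 at P14, and at 44.1, 38.7, 43.4 and 45.2 at P28. Setd1a passed in neither step, and P14 replicate 2 set the P14 spread: without it Setd1a rose from P14 to P28 by 0.48 (adjusted p = 0.00246) and from P0 to P28 by 0.37 (adjusted p = 0.00163).

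Kmt2a (MLL1), a writer at developmental promoters, was at 298, 348, 372 and 288 scaled CPM at P0, at 312, 205, 258 and 272 at P14, and at 472, 397, 451 and 511 at P28. The P0 and P14 ranges overlap and every P28 library lies above both. The rise to P28 was 0.82 ± 0.13 (adjusted p = 0.00133). The earlier fall was -0.33 ± 0.13 (adjusted p = 0.0421). It was lost in 7 fits that left out 1 library (P0 replicate 2 or 3, P14 replicate 2, 3 or 4, or P28 replicate 1 or 3, adjusted p = 0.0548 to 0.11) and over all alternatives its adjusted p ranged from 0.0146 to 0.299. Kmt2d (MLL4), which monomethylates H3K4 at enhancers, was at 141, 130, 143 and 109 at P0, at 92, 101, 89.5 and 103 at P14, and at 150, 128, 130 and 159 at P28. P14 lay below the other ages, between which Kmt2d did not pass (0.12 ± 0.11, adjusted p = 0.336). Setd7, a monomethyltransferase of H3K4 and of many other proteins, had no call to P14 (0.27 ± 0.15, adjusted p = 0.119). Without P14 replicate 2, its lowest P14 library, it rose by 0.42 (adjusted p = 0.00172). It rose from P14 (93.9, 58.7, 87.2 and 89.5) to P28 (149, 140, 139 and 128), by 0.77 ± 0.15 (adjusted p = 0.00338). Kmt2b and Kmt2c fell to P14 by 0.45 and 0.50 on the log2 scale and had no call afterwards.

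Among the H3K4 erasers, Kdm5b was at 264, 257, 291 and 253 scaled CPM at P0, at 107, 106, 100 and 110 at P14, and at 120, 109, 122 and 116 at P28. Its groups at P0 and P14 are far apart compared with the spread inside each (-1.32 ± 0.08, adjusted p = 5.29e-09). Kdm1a (LSD1), the oxidase that removes mono- and dimethylation within the CoREST repressor complex, was at 359, 294, 284 and 299 at P0, at 128, 244, 136 and 140 at P14, and at 106, 114, 118 and 118 at P28. P14 replicate 2 was again the high library at P14, and the fall was -0.98 ± 0.17 (adjusted p = 0.000171), or -1.19 without that library. Its later change did not pass (-0.45 ± 0.17, adjusted p = 0.0777). It passed as a fall without P14 replicate 1 (-0.55, adjusted p = 0.0481). It also passed without P0 replicate 1 and P14 replicate 2 together, with DESeq2, and with the values not rescaled. That last setting moved the median of all genes to -0.20 in this step. Kdm1b (LSD2), its relative without CoREST, was at 53.1, 59.2, 58.9 and 51.3, then at 23, 31.2, 25.6 and 29.5, then at 16.7, 19.2, 22.9 and 21.2. It fell by 1.02 (adjusted p = 6.83e-06) and again by 0.44 on the log2 scale (adjusted p = 0.0259). That second call was lost without P14 replicate 4 or P28 replicate 1 or 2 (adjusted p = 0.0666 to 0.0793). Kdm5a and Kdm5c, the latter X-linked and mutated in intellectual disability, fell to P14 by 0.59 and 0.79 on the log2 scale. Kdm5a was still lower at P28 than at P0 (-0.30 ± 0.12, adjusted p = 0.0366), a call lost in 6 of the 12 fits that left out 1 library (P0 replicate 2, 3 or 4, or P28 replicate 1, 2 or 4, adjusted p = 0.0656 to 0.0989).

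**Figure D2:**
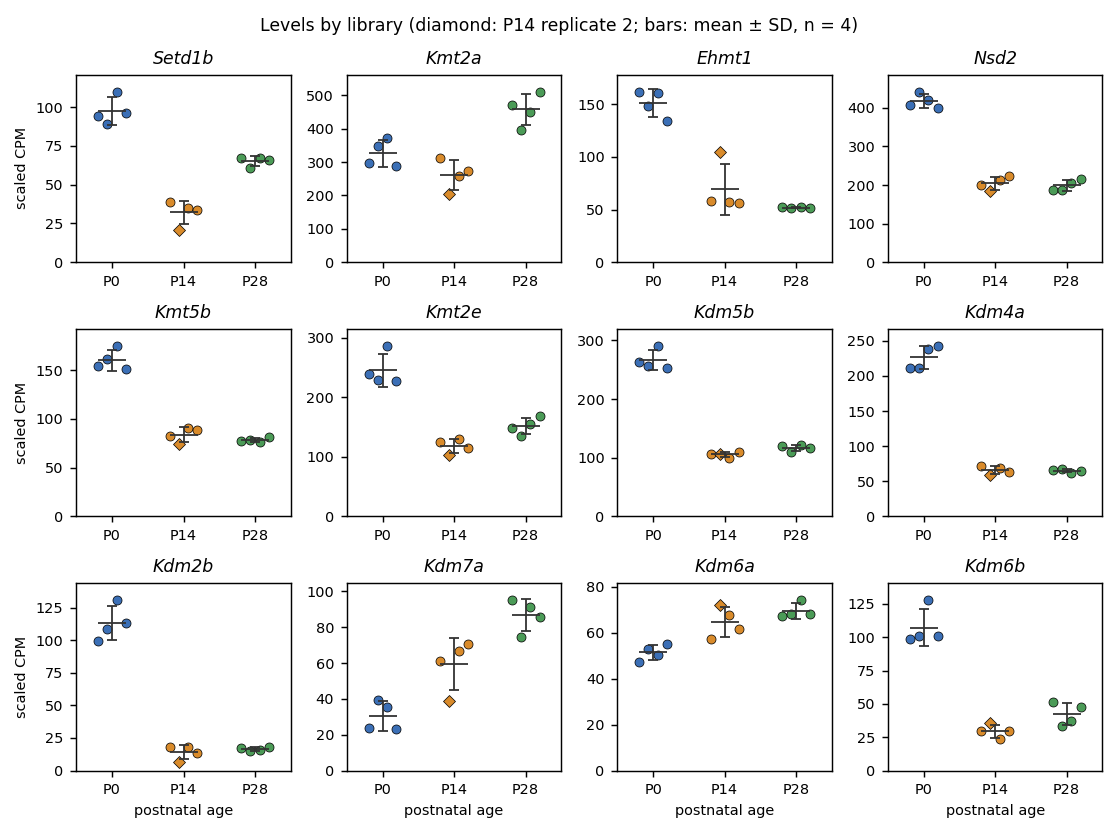
Scaled CPM of 12 genes in each library at P0, P14 and P28 (points; diamond for P14 replicate 2), with mean ± SD over 4 libraries (bars); each vertical axis starts at 0. Setd1b is lowest at P14, Kdm2b and Kdm4a are low at both later ages, and Kdm7a is highest at P28.

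The H3K9 writers fell or had no call. Of 6, 3 fell from P0 to P14 (Ehmt1, Suv39h1 and Suv39h2) and 0 rose (median -0.30), and only Suv39h1 passed afterwards, falling. With the values not rescaled, 1 fell and 2 rose in the first step. Ehmt1 (GLP), which dimethylates H3K9 in a complex with Ehmt2 (G9a) and is deleted in Kleefstra syndrome, was at 162, 148, 161 and 134 scaled CPM at P0, at 58.1, 105, 57.5 and 55.9 at P14, and at 52.4, 51.4, 52.2 and 51.9 at P28. All P14 libraries lay below P0, with replicate 2 between the groups, and the fall was -1.17 ± 0.17 (adjusted p = 2.93e-05). Ehmt2 was at 357, 300, 288 and 320 at P0, at 224, 409, 209 and 222 at P14, and at 246, 250, 254 and 261 at P28. Its change to P14 did not pass (-0.30 ± 0.17, adjusted p = 0.134), and without P14 replicate 2 it was a fall of 0.53 on the log2 scale (adjusted p = 2.3e-05). Without that library Ehmt2 also fell from P0 to P28 (-0.32, adjusted p = 0.00107). Suv39h1, a trimethylase of pericentric heterochromatin, was at 46.5, 41.9, 35.8 and 43, then at 31.6, 38.1, 33.1 and 31.9, then at 22.9, 23, 25.7 and 25.6. The P0 and P14 ranges overlapped and P28 lay below both. It fell by 0.30 (adjusted p = 0.0186; 0.0552 without P0 replicate 1 and 0.0515 without P14 replicate 4) and then by 0.46 on the log2 scale (adjusted p = 0.00911). Suv39h2, at 5.58 to 9.57 in all libraries, fell by 0.39 on the log2 scale to P14 (adjusted p = 0.0234; 0.0573 without P14 replicate 2 and 0.0635 without P14 replicate 4). Setdb1, which silences endogenous retroviruses, and Setdb2 had no call in any comparison, though Setdb1 fell to P14 without P14 replicate 2 (-0.20, adjusted p = 0.0431).

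The H3K9 erasers were split, with 1 of 4 rising and 1 falling from P0 to P14 (3 and 1 with the values not rescaled). Kdm7a was at 23.5, 39.4, 35.4 and 23 scaled CPM at P0, at 61, 38.6, 66.9 and 70.9 at P14, and at 95.3, 74.8, 91.5 and 85.8 at P28. Only P14 replicate 2 overlapped P0, and every P28 library was higher than every P14 library. The rise to P14 was 0.96 ± 0.21 (adjusted p = 0.000988) and that from P0 to P28 1.54 ± 0.21 (adjusted p = 1.57e-05). The step from P14 to P28 did not pass (0.58 ± 0.21, adjusted p = 0.0682), but passed as a rise with DESeq2 (adjusted p = 0.0457). Kdm3a, a demethylase also induced by low oxygen, had no call to P14 and rose to P28, from 70.7, 103, 75.1 and 78.8 to 117, 103, 124 and 112 (0.49 ± 0.12, adjusted p = 0.0151). That call was lost without P28 replicate 3 (adjusted p = 0.0512). Without P14 replicate 2, Kdm3a also fell from P0 to P14 (-0.22, adjusted p = 0.0458). Kdm3b, its paralog, fell from 132, 127, 153 and 125 at P0 to 77.2, 88.4, 81.8 and 83.5 at P14 (-0.69 ± 0.08, adjusted p = 7.92e-06). To P28 it had no call in the main fit. It rose without P14 replicate 2 (0.25, adjusted p = 0.0357), without that library and P0 replicate 1 together, and with DESeq2. Phf8, an X-linked relative of Kdm7a, had no call in any comparison. Without P0 replicate 3 it rose from P0 to P14 (0.37, adjusted p = 0.00633) and to P28 (0.36, adjusted p = 0.00723). Both rises also passed with the values not rescaled, a setting that moved the median of all genes to 0.47 and 0.27. The rise to P14 also passed with library total scaling.

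Of the erasers that act on both H3K9 and H3K36, Kdm4a and Kdm4b fell to P14 and Kdm4c did not pass. Kdm4c rose with TMM or library total scaling, with edgeR and with DESeq2. It also rose with the values not rescaled, where the median of all genes was 0.47. Kdm4a was at 212, 212, 238 and 243 scaled CPM at P0, at 71.5, 58.8, 68.6 and 62.8 at P14, and at 66.1, 67.9, 62.5 and 64.9 at P28. The drop came by P14, and the later step did not pass (-1.78 ± 0.08, adjusted p = 1.01e-09, then 0.00 ± 0.08, adjusted p = 0.99). Kdm4b fell by 0.78 on the log2 scale (adjusted p = 5.69e-06). Kdm4c was at 42.2, 39.7, 42.4 and 31.3 at P0, at 38.9, 74.6, 43.5 and 48 at P14, and at 44.1, 47.3, 48.9 and 49 at P28. Its change to P14 was 0.36 ± 0.17 (adjusted p = 0.0758), and it passed as a rise without P14 replicate 1 (0.47, adjusted p = 0.0245). From P0 to P28 it rose without P14 replicate 2 (0.29, adjusted p = 0.0167).

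Among the 5 H3K36 writers, 3 fell from P0 to P14 (Nsd1, Nsd2 and Setd2) and 1 rose afterwards (Setd2). With the values not rescaled, 1 fell and 1 rose in the first step. Nsd2, a dimethyltransferase lost in Wolf-Hirschhorn syndrome, was at 408, 442, 420 and 399 scaled CPM at P0, at 201, 184, 212 and 223 at P14, and at 188, 188, 205 and 216 at P28. The P0 libraries were far above all others (-1.03 ± 0.09, adjusted p = 1.91e-07). Setd2, the enzyme that trimethylates H3K36 behind RNA polymerase II, was at 213, 233, 243 and 241 at P0, at 202, 120, 221 and 167 at P14, and at 273, 256, 283 and 273 at P28. P14 spread widely and P28 lay above it, and the changes were -0.43 ± 0.15 (adjusted p = 0.0218) and 0.65 ± 0.15 (adjusted p = 0.0108). From P0 to P28 Setd2 passed only without P14 replicate 2 among the fits that left out 1 library (0.22, adjusted p = 0.0235). Nsd1, mutated in Sotos syndrome, fell by 0.34 on the log2 scale to P14, and Nsd3 had no call in any comparison. With DESeq2, Nsd3 rose from P14 to P28 (adjusted p = 0.0332). Ash1l, an autism-linked dimethyltransferase, was at 57.7 in P14 replicate 2 and at 134 to 186 in the other P14 libraries. It passed in no comparison. Without that library it was higher at P28 than at P14 (0.39, adjusted p = 0.0316) and than at P0 (0.41, adjusted p = 0.0043). The rise from P14 to P28 also passed without P14 replicate 1 (0.0387) or 3 (0.0471).

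Dot1l, the only H3K79 methyltransferase, rose from 172, 133, 127 and 142 scaled CPM at P0 to 175, 223, 160 and 176 at P14, and was at 229, 169, 193 and 210 at P28. The P0 and P14 ranges overlapped through P0 replicate 1. The rise was 0.35 ± 0.13 (adjusted p = 0.0274) and was lost without P0 replicate 2 (0.0774), 3 (0.0949) or 4 (0.0583). Of the H4K20 writers, Kmt5b (SUV420H1) fell from 154, 161, 175 and 151 to 82.9, 74, 90.4 and 88.4 and was at 77.3, 78.4, 76.2 and 81.5 at P28 (-0.93 ± 0.08 to P14, adjusted p = 3.78e-07). Kmt5a, the monomethylase whose protein follows the cell cycle, was at the threshold (-0.27 ± 0.12, adjusted p = 0.0499). Its call was lost in 9 of the 12 fits that left out 1 library (adjusted p = 0.0557 to 0.136) and held without P0 replicate 2 or 4 or P14 replicate 2. Kmt5c did not pass in any comparison, and its P14 libraries ran from 30.3 to 77. It fell from P14 to P28 without P14 replicate 3 (-0.67, adjusted p = 0.0497) and from P0 to P28 without P14 replicate 2 (-0.40, adjusted p = 0.00245). The fall from P14 to P28 also passed with DESeq2.

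Of the 6 SET domain genes with other or debated targets, 3 fell and 1 rose from P0 to P14 (2 and 2 with the values not rescaled). Kmt2e (MLL5), a chromatin reader without clear enzymatic activity, was at 240, 230, 287 and 227 scaled CPM at P0, at 125, 104, 131 and 115 at P14, and at 148, 136, 155 and 169 at P28. No ages overlapped, and the changes were -1.05 ± 0.11 (adjusted p = 1.2e-06) and 0.36 ± 0.11 (adjusted p = 0.0335). The second call was lost without P14 replicate 4 or P28 replicate 1, 3 or 4 (adjusted p = 0.0635 to 0.105). Setd3, which methylates a histidine of actin, rose from 123, 120, 92.5 and 108 to 135, 207, 138 and 152 (0.50 ± 0.13, adjusted p = 0.00441) and was at 133, 144, 141 and 149 at P28. Smyd3 and Smyd5 fell to P14 by 0.85 and 0.35 on the log2 scale, and Setd5 and Smyd2 had no call. Smyd5 rose to P28 without P14 replicate 2 (0.24, adjusted p = 0.0412). With DESeq2, Smyd3 and Smyd5 both rose from P14 to P28.

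The 2 genes listed as H3K27 erasers moved in opposite directions (Kdm7a, which also erases H3K27 methylation, is listed with the H3K9 erasers). Kdm6b (JMJD3), an inducible demethylase that lifts Polycomb repression during neurogenesis, was at 98.8, 101, 128 and 101 scaled CPM at P0, at 29.3, 35.4, 23.3 and 29.8 at P14, and at 51.4, 33.5, 37.5 and 47.5 at P28. P14 lay well below P0 (-1.85 ± 0.15, adjusted p = 2.12e-07). The later rise of 0.52 ± 0.15 (adjusted p = 0.0361), with overlapping groups, was lost in 6 of the 12 fits that left out 1 library (P14 replicate 1, 3 or 4, or P28 replicate 1, 3 or 4, adjusted p = 0.0518 to 0.107). Kdm6a (UTX), the X-linked relative found in the KMT2C and KMT2D complexes, was at 47.3, 52.9, 50.4 and 55 at P0, at 57.2, 72.1, 67.7 and 61.7 at P14, and at 67.1, 68.1, 74.3 and 68.3 at P28. Every P14 library was above every P0 library (0.33 ± 0.09, adjusted p = 0.00564). The Y-linked relatives had no call in any comparison: Uty, related to Kdm6a, was at 15.1 to 28.7, and Kdm5d, related to Kdm5c, at 49.3 to 81.4. The treatment of reads that match both an X and a Y copy was not given in the sources used here.

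**Figure D3:**
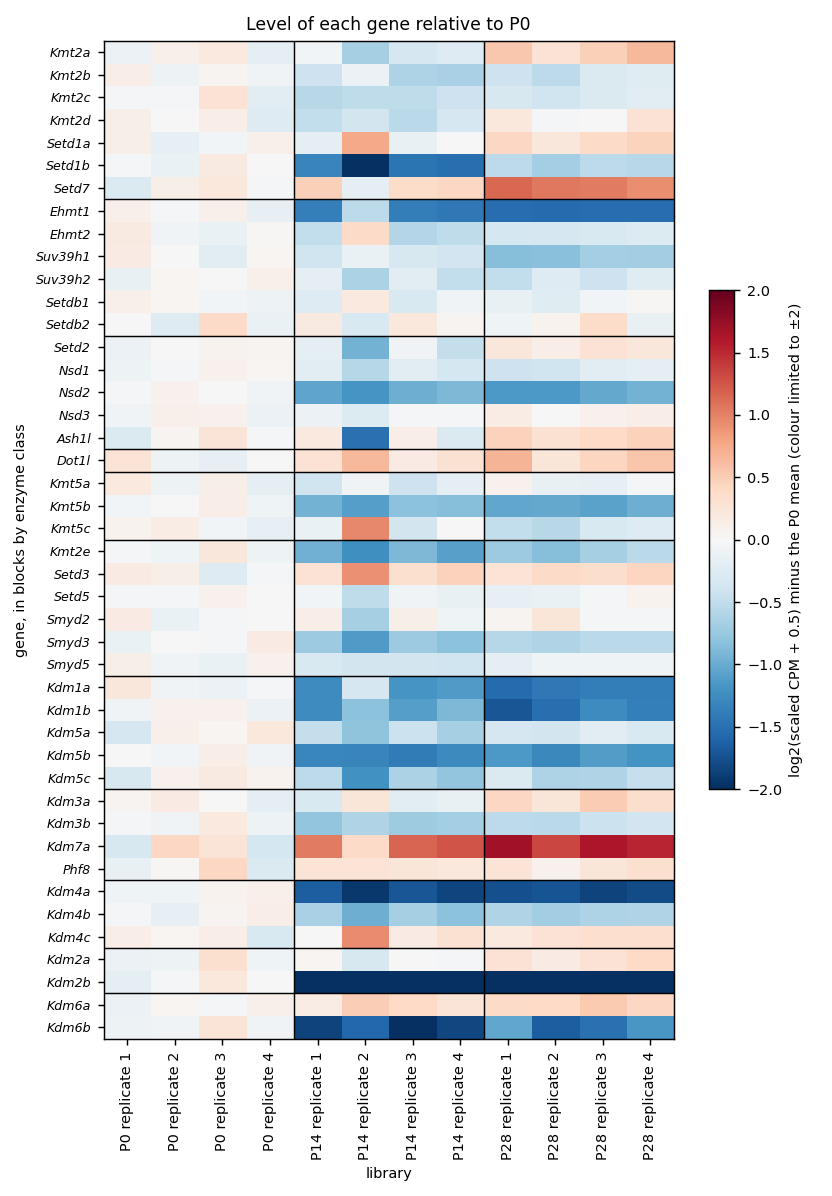
Log2(scaled CPM + 0.5) of the 44 genes in each of the 12 libraries, minus the gene's P0 mean, in blocks by enzyme class; colours stop at 2 in either direction. The H3K4 erasers (Kdm1a to Kdm5c) are blue at P14 and P28, while Setd7 and Kdm7a are red at P28; P14 replicate 2 differs in colour from the other P14 columns in several rows, Ash1l, Ehmt2 and Kmt5c among them.

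Writers were set against erasers of the same residue inside each library, as the difference of their mean log2 levels relative to the P0 mean, which no scaling between tables moves. For H3K4 (7 writers, 5 erasers) the difference lay between -0.10 and 0.08 at P0, between 0.43 and 0.60 at P14, and between 1.03 and 1.15 at P28. The 3 ages did not overlap, and the means were 0.52 ± 0.08 at P14 and 1.08 ± 0.06 at P28 (SD, n = 4). For H3K36 (5 writers and 5 erasers, Kdm4a to Kdm4c included) it was 0.61 ± 0.17 at P14 and 0.78 ± 0.03 at P28, with all later libraries above the P0 range of -0.06 to 0.12. Most of that came from Kdm2b: without it the difference was 0.12 ± 0.29 at P14, overlapping P0, and 0.33 ± 0.04 at P28. For H3K4, leaving out any 1 gene kept the 3 ages apart, with means of 0.40 to 0.72 at P14 and 0.93 to 1.25 at P28. For H3K9 (6 writers, 7 erasers) it was -0.12 ± 0.13 at P14, overlapping P0, and -0.44 ± 0.07 at P28, below every P0 and P14 library. Without Kdm7a the H3K9 difference at P28 was -0.17 ± 0.05, and without Ehmt1 -0.23 ± 0.07. How often sets of other genes keep the ages apart was not measured. Of single genes, 68.9% were called from P0 to P14, 18.3% from P14 to P28 and 71.2% from P0 to P28. These means weigh each gene alike and are a description of transcript levels, not of enzyme activity.

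Log2 ratios of related genes within a library were compared for 19 pairs over the 3 comparisons by an exact two-sided permutation test. With 70 arrangements its smallest p is 0.0286, which adjusts to 0.0479 over the 57 tests, and each pair that passed has that value. Whether any ratio passes therefore depends on how many of the 57 reach the smallest p. The pairs were chosen with earlier results of these data known, and the 3 comparisons share libraries. From P0 to P14, 11 ratios passed, from P14 to P28 7, and from P0 to P28 16. How often pairs of other genes pass was not measured, and 68.9%, 18.3% and 71.2% of single genes were called in these comparisons. Without P14 replicate 2 the 3 counts were the same and 32 of the 34 ratios still passed, but the Kdm3a/Kdm3b ratio no longer passed from P0 to P14 (adjusted p = 0.0904) and the Kdm7a/Phf8 ratio did. From P14 to P28 the Nsd1/Nsd3 ratio no longer passed without that library (adjusted p = 0.0904) and the Kdm3a/Kdm3b ratio did. Kdm2a gained 2.99 on Kdm2b to P14 (log2 ratio 0.07 ± 0.09, then 3.06 ± 0.48; SD, n = 4), or 2.77 without P14 replicate 2. Kdm6a gained 2.18 on Kdm6b, and Kdm4a lost against Kdm4c (-2.14, or -1.90 without that library). Setd1a gained 1.72 on Setd1b (1.31 without it), and this ratio came back by -0.79 to P28 (-0.38 without it). Ehmt1 lost against Ehmt2 in both steps (-0.87 and -0.34). The ratio of Kdm1a to Kdm1b, which both fell, did not pass in any comparison (0.04 to P14, adjusted p = 0.909). Neither did the Kdm5a/Kdm5c and Setdb1/Setdb2 ratios.

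**Figure D4:**
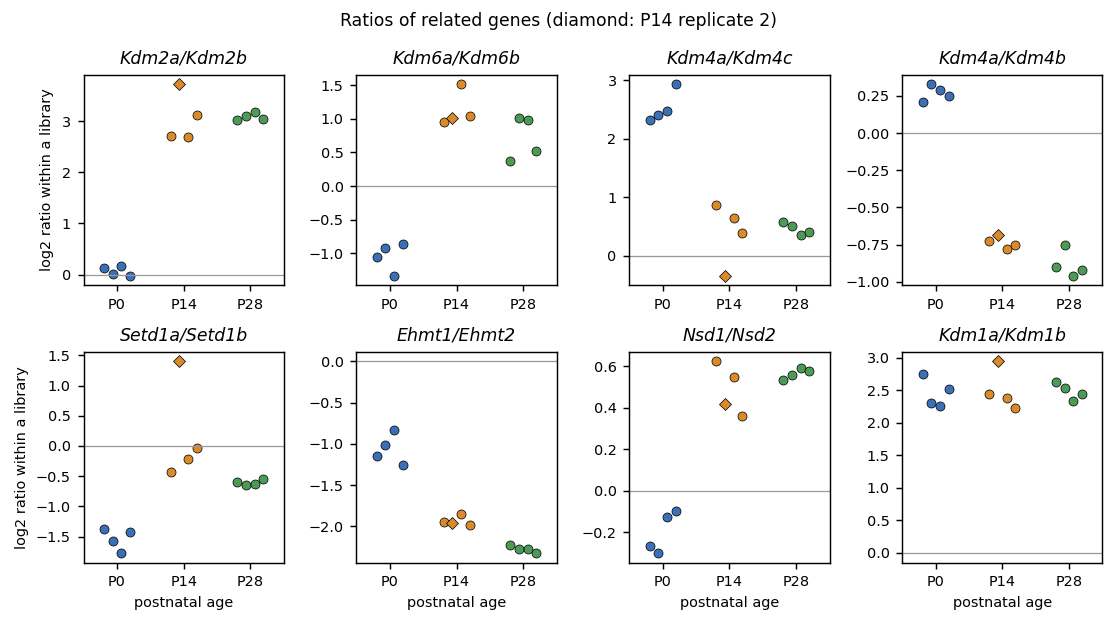
Log2 ratio of 8 related pairs within each library at P0, P14 and P28 (diamond for P14 replicate 2). The height of a ratio also reflects the lengths of its 2 genes, so only its change between ages is read: Kdm2a/Kdm2b moves from 0.07 ± 0.09 at P0 to 3.06 ± 0.48 at P14 (SD, n = 4), and the change of Kdm1a/Kdm1b did not pass.

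Partners of these enzymes were taken from lists and are given as counts from P0 to P14, for which 34.4% of all genes rose and 34.5% fell. In PRC2, the complex that writes H3K27 methylation, 2 of 12 genes rose and 4 fell. Ezh2, its catalytic subunit in dividing cells, was at 106, 79, 72 and 61.2 scaled CPM at P0, at 11.6, 25.9, 10.7 and 11.9 at P14, and at 11, 10.9, 13.4 and 13.7 at P28. All later libraries were far below P0 (-2.44 ± 0.25, adjusted p = 1.23e-06). Ezh1, the catalytic subunit found in nondividing cells, was at 46.7 to 55.1 in P0 libraries, at 53.1 to 55.6 in P14 libraries and at 81.8 to 86 in P28 libraries. It had no call to P14 and rose in the second step (0.62 ± 0.08, adjusted p = 0.000228). Epop, an accessory subunit, rose in both steps (1.46 and 1.11), and Rbbp4, a histone-binding subunit, fell by 1.00 on the log2 scale to P14.

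Of 12 COMPASS subunits, which H3K4 methyltransferases need, 1 rose and 5 fell. Hcfc1, Ncoa6 and Ash2l fell by 1.18, 1.08 and 0.53 on the log2 scale, while Pagr1a, which belongs to the KMT2C and KMT2D complexes, rose (1.79 ± 0.29, adjusted p = 8.63e-05). Pagr1a was under the filter level in every P0 library (0.299 to 0.875 scaled CPM). It passed the filter only through P14 (1.86 to 5.92) and P28 (1.40 to 2.08), so the size of its rise is uncertain. Of 8 genes of the LSD1-CoREST complex, 4 fell and 0 rose, with Rcor2 at -1.42, the deacetylase Hdac2 at -0.91 and Phf21a, a reader of unmethylated H3K4, at -0.85. Of 8 HP1 proteins and H3K9 repressor partners, 6 fell and 1 rose. Wiz, a zinc finger partner of Ehmt1 and Ehmt2, fell by 1.62, Trim28, which brings Setdb1 to its targets, by 1.27, and Atf7ip, a stabilizer of Setdb1, by 1.22 on the log2 scale. Of 7 other demethylase genes, 1 rose (Kdm8, 0.90) and 1 fell (Phf2, an H3K9 demethylase, -1.39). Of 9 other SET and PR domain genes, 3 rose and 3 fell, with Prdm16, active in radial glia, at -2.23.

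Markers of other cells moved between the same ages. From P0 to P14, 13 of the 15 genes for progenitors and the cell cycle fell and 1 (Hes1) rose, and their summed level in scaled CPM was 413 to 538 in P0 libraries, 95.7 to 134 in P14 libraries and 94.7 to 99.8 in P28 libraries. All 7 vessel markers fell (841 to 1400, then 65.2 to 189, then 39.1 to 78.5). All 7 oligodendrocyte markers rose (93.5 to 102, then 984 to 2410, then 1800 to 2920), as did all 7 microglial markers (25.5 to 36.7, then 44.7 to 91.6, then 66.7 to 81.3). Of 6 astrocyte markers 3 rose and 0 fell (393 to 561, then 389 to 1090, then 541 to 679). Of 9 inhibitory neuron markers 2 rose and 3 fell (398 to 416, then 223 to 358, then 295 to 386), and the 5 oligodendrocyte precursor markers had 1 rise and 2 falls (133 to 161, then 86.1 to 140, then 90.6 to 133). The 10 excitatory neuron markers summed to 1840 to 2080, 1560 to 2460 and 2680 to 2790, with 1 rising and 6 falling from P0 to P14. The riser was Slc17a7, alone at 111 to 145, then 833 to 1700, then 1940 to 2050, so the sum does not follow the other markers of this list. P14 replicate 2 had the lowest P14 sum in 7 of these 8 lists. None of these markers was at 0 in all libraries. Their part in the changes of the 44 genes was not tested.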

How the data were processed

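Nuclear polyadenylated RNA of 12 libraries, 4 at each of 3 ages, was measured. The authors deposited 1 table of normalized counts per age (unit: signal), in which each gene's reads were divided by 1 factor per library. Per the submitters' processing notes DESeq2 and mm10 were used, without versions. The aligner, counter, strand setting, annotation and filters were not given in the sources used here. In each library 100% of values were whole multiples of its step within 0.05 reads, so whole reads were recovered (for P0 replicate 1 the step was 1.005).

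Each column was rescaled to CPM over the 25834 genes in all 3 tables and by a median-of-ratios factor over 12 libraries (0.936 to 1.04). Genes at 1 scaled CPM or more in at least 4 libraries were tested on log2(scaled CPM + 0.5) with limma (3.58.1 in R 4.3.3; trend, robust, age with 3 levels, no block), two-sided, adjusted by Benjamini and Hochberg over all 15734 genes, at 0.05. On this scale the change of low genes is understated. The code was tested on simulated data, with a preset spread and fewer changed genes than were called in the real data. Of simulated 1.5-fold changes, 28%, 33.3% and 29.6% were called from P0 to P14, P14 to P28 and P0 to P28. Of 2-fold changes, 91.5%, 95.4% and 88.7% were called, so the lack of a call does not exclude a smaller change. Alternatives covered pseudocount, filter, scaling, limma settings, edgeR 4.0.16 and DESeq2 1.42.0 on recovered reads, thinned reads, a replicate block and libraries left out; leaving out P0 replicate 1 and P14 replicate 2 together, and leaving out 1 gene at a time from the comparison of writers with erasers, were chosen after the data were seen. Replicate numbers pair no animals between ages, and no pairing was used.

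The 44 members, the partner and marker lists and the gene pairs were chosen with earlier results of these data known. Values in every library are given for the largest rise and fall of each class among called members, members called in opposite directions in the 2 steps, members of the pairs that changed most, and Ezh1 and Ezh2; of partner lists up to 3 genes with the smallest adjusted p are named. The other members are named so that each is accounted for. Kdm1a and Setd7 were given in full, and Pagr1a and Hes1 named, after their values were seen. RefSeq (GRCm38.p6) supplied promoter windows and gene coordinates, by symbol.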

Additional observations from a re-analysis of the deposited data

Results flagged for a closer look

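Each age of each of the 44 genes was searched for a single library far from the other 3, and 7 of 132 such groups held one, 4 of them in P14 replicate 2. Chance gives such a library in about 1 group in 20. In P14 replicate 2, Setd1a was at 56.4 scaled CPM (28.8 to 33.1 in the other P14 libraries), Ehmt1 at 105 (55.9 to 58.1), Ehmt2 at 409 (209 to 224) and Kdm1a at 244 (128 to 140). In P0 replicate 3, Kdm2a was at 147 (109 to 111 in the other P0 libraries) and Kdm6b at 128 (98.8 to 101). In P28 replicate 1, Smyd5 was at 70.8 (76.4 to 76.9 in the other P28 libraries).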

How the results depend on the processing

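The 44 genes were refitted under 28 alternatives. Setting aside the deposited values without rescaling, 3389 of 3564 refitted gene changes kept their call or lack of one, 118 lost a call, 56 gained one and 1 turned. With the deposited values without rescaling, 15 members rose and 14 fell from P0 to P14, 5 rose and 6 fell from P14 to P28, and 15 rose and 13 fell from P0 to P28; the median of all genes then moved to 0.47, -0.20 and 0.27. In that setting these changes from P0 to P14, each called in at least 1 of the 2 fits, turned: Kmt2a 0.16, Kmt2b 0.037, Kmt2d 0.047, Suv39h1 0.17, Suv39h2 0.069, Setdb1 0.37, Setd2 0.056, Nsd1 0.14, Nsd3 0.36, Kmt5a 0.21, Setd5 0.29, Smyd5 0.13, Kdm3a 0.38 and Kdm2a 0.40. Ehmt2 (0.18), Ash1l (0.12) and Smyd2 (0.35), called in neither fit, also changed sign. Scaling to the library total gave 7 members rising from P0 to P14. From P14 to P28, DESeq2 called 14 rising and 4 falling, edgeR 9 and 2, limma on the 8 libraries of the comparison 8 rising and 1 falling, and the fit without both merged libraries 5 rising and 1 falling. Without P0 replicate 1 and P14 replicate 2, 16 rose from P14 to P28, and Ehmt2 turned to a rise of 0.21 (adjusted p = 0.0249; -0.01 with all libraries and -0.11 without P14 replicate 3). Apart from the shift of all genes in the setting without rescaling, the cause of these differences was not tested.

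Leaving out 1 library at a time gave 3 to 5 members rising and 22 to 27 falling from P0 to P14. From P14 to P28 it gave 5 (without P28 replicate 3) to 12 (without P14 replicate 2) rising and 1 (without P14 replicate 4, P28 replicate 1 or P28 replicate 2) to 3 falling. From P0 to P28 it gave 6 to 12 rising and 19 to 23 falling. Of the ratios of related genes, 34 of 57 passed, the same number passed with each pseudocount tried and without P14 replicate 2, and 32 passed both with and without that library. With the replicate number as a replicate block, 4 members rose and 24 fell from P0 to P14. From P14 to P28, 8 rose and 2 fell, and from P0 to P28, 8 rose and 19 fell. Same-numbered libraries deviated with correlations of -0.51 to 0.36. With 4 libraries per age these cannot tell whether same-numbered libraries share a batch.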
